A study of Mus musculus with 10 samples.

Results

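Day 13 embryoid bodies (EBs) in which Pdx1 and Ngn3 had been induced were compared with βTC6 cells, a clonal insulin-producing line grown from a mouse insulinoma. The comparison took 4 of the 10 arrays of the study, chosen by their labels: 2 arrays of EBs given doxycycline, called Dox(+) EBs, and 2 arrays of βTC6 cells. Of 34967 discovery probes, 26026 were above background on both arrays of either group and were tested. The EBs came from Ainv18 mouse ES cells carrying a Dox-inducible bicistronic Pdx1-IRES-Ngn3 cassette, inserted at the Hprt locus. A further label of the same arrays names activated Notch4 as the induced gene. These cells were kept in a serum-free medium with N2 and B27, received activin A (50 ng/ml) from day 2, were reaggregated on day 4 with 1 µg/ml Dox, bFGF at 10 ng/ml, and BMP4 and activin A each at 50 ng/ml, and floated free from day 6 with Dox until harvest on day 13. EBs of the same cells that went through this protocol without Dox are called Dox(-) EBs and are given as the untreated level. The remaining arrays, 2 of whole islets and 2 of whole embryonic pancreas (E15.5), both from untreated mouse tissue, are given only as levels for reference. βTC6 cells grew without treatment in DMEM with 15% fetal calf serum. They descend from mice in which the insulin promoter drives SV40 large T antigen, and they stand for 1 transformed clone.

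A pancreatic β cell stores insulin in dense-core granules together with granins and prohormone convertases, senses glucose through its metabolism, and releases the granules when ATP-sensitive potassium channels close. Ngn3 (Neurog3) starts the endocrine programme in progenitors and is then shut off, while Pdx1, Nkx6-1 and Mafa hold mature β-cell identity. Enteroendocrine cells of the gut use the same granule proteins and many of the same factors, and release other hormones such as GIP, CCK and PYY. EBs are mixtures of cell types from all germ layers, so in this bulk RNA fewer cells of a type and less RNA per cell cannot be told apart.

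Values are scaled intensities, in which the median discovery probe of each array is 1, and differences are log2 of Dox(+) EBs minus βTC6 cells with the standard error (SE) of the fit. By limma with Benjamini-Hochberg adjustment at a threshold of 0.05, 7183 probes were higher in Dox(+) EBs (27.6% of those tested) and 10445 were lower (40.1%), so that 67.7% were called in either direction, with a median difference of -0.14. With 1 probe for each of 14875 genes, 4328 (29.1%) were higher and 6465 (43.5%) lower. Each count of list members below is to be read beside these shares. A probe at background on both arrays of 1 group entered the test only through its level in the other, which largely set its direction. Differences of at least 1 were held by 3306 of the higher and 5221 of the lower probes, and differences of at least 4 by 266 and 184. A further count, with no test, was lopsided the other way: 2180 probes were above background on both Dox(+) arrays and at background on both βTC6 arrays, and 565 the reverse. Detection also differed between the groups. On the Dox(+) arrays 73.7% and 74.3% of probes were above background, against 66.0% and 68.2% on the βTC6 arrays. The median net signal was 2.49 and 2.63 times the local background, against 1.66 and 1.72. How far detection accounts for the lopsided count was not tested. Across probes the replicate arrays correlated at 0.995 for Dox(+) EBs and 0.989 for βTC6 cells, and probes are not independent replicates. The labels call the arrays biological replicates without saying whether they came from separate cultures, so the p-values measure the spread between these arrays, which may be technical.

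The scaling bears on every difference below. The median raw signal was 132 and 141 in Dox(+) EBs but 91.3 and 92.1 in βTC6 cells, so the division by the median raised bright βTC6 spots more: saturated spots sat at a median scaled level of 199.6 and 192 on the Dox(+) arrays, against 319 and 329 on the βTC6 arrays. In the brightest of 8 equal bins of level the median difference was -0.77, with 75.9% of probes lower and 8.79% higher, while bins 1 to 6 had medians from -0.08 to 0.14. Control probes printed 20 times per array, whose identity is not given in the sources used here, read 1.76-fold higher in βTC6 cells after the scaling (difference -0.81). Other control probes went both ways, and 1 read 19.9 and 18.6 in Dox(+) EBs against 6.43 and 9.94. Dividing by them instead turned the split to 60.6% higher and 16.4% lower with a median of 0.64, and quantile normalization gave 33.0% and 33.3% with a median of 0.01. A small difference below 0 therefore turns sign with control-spot scaling. Named genes that changed sign and were called under either scaling are listed among the limits, most of them without a call in the new direction. Those called under neither are not listed. The slide numbers of the EB arrays fall in a range apart from those of the βTC6 and islet arrays, so the array batch, the culture medium and the group cannot be told apart.

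**Figure D1:**
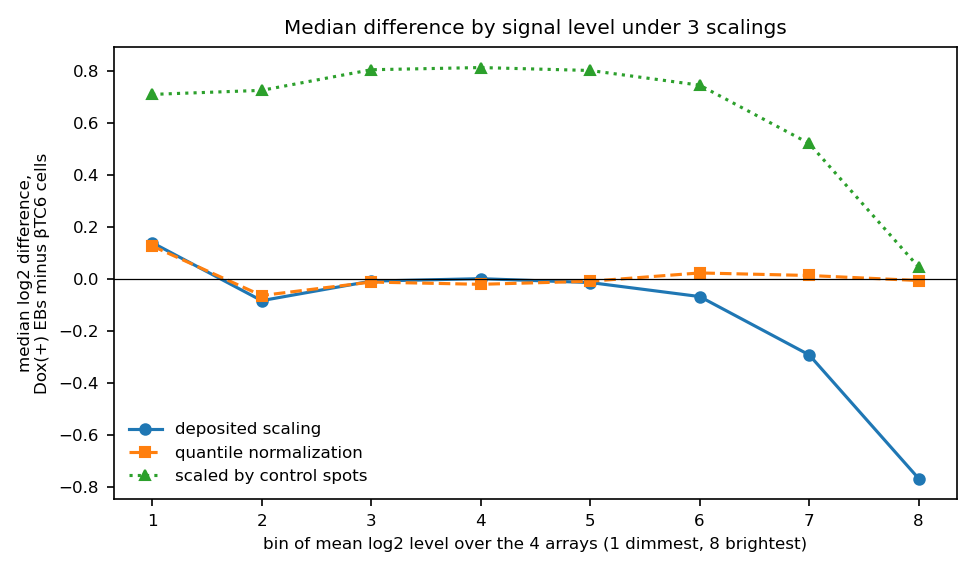
Median log2 difference, Dox(+) EBs minus βTC6 cells, in 8 bins of mean level over the 4 arrays, for the deposited scaling, quantile normalization and control-spot scaling. The deposited scaling lies between -0.08 and 0.14 in bins 1 to 6 and reaches -0.77 in the brightest bin, where control-spot scaling gives 0.05.

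The 10 largest differences in favour of the EBs included genes for secreted growth factors, a collagen and a gut hormone. Ptn, which encodes the secreted growth factor pleiotrophin, stood at 160.0 and 175 in Dox(+) EBs against 0.27 on both arrays (both at background) in βTC6 cells, at least 532-fold higher (difference 9.27 (SE 0.10), limma adjusted p = 4.50e-14). Col3a1, a fibrillar collagen, stood at 151 and 165 against 0.27 on both arrays (both at background), at least 503-fold higher, and the incretin gene Gip at 243 and 259 (both saturated) against 0.672 and 0.446, at least 459-fold higher. The other 7 of the 10 largest were Igfbp5 (at least 258-fold) and Igfbp2 (45.5 and 44.9 against 0.391 and 0.459 (the second at background)), which bind insulin-like growth factors, the collagen chaperone Serpinh1 (at least 228-fold), the pleiotrophin relative Mdk (at least 173-fold), the imprinted adaptor Grb10 (122-fold) and the transcription factors Tead2 (at least 103-fold) and Nfatc4 (at least 93.2-fold). Ptn and Gip were lower without Dox, and the other 8 stood at similar or higher levels there: in Dox(-) EBs Ptn was at 14.6 and 13.8 and Gip at 0.614 and 0.631, whereas Col3a1 was at 281 and 294 (both saturated) and Grb10 at 231 and 227.

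Among the 10 largest differences in the other direction was a β-cell gene of known function. Slc30a8, the zinc transporter of insulin granules, stood at 0.470 and 0.522 in Dox(+) EBs against 98.7 and 95.6 in βTC6 cells, 196-fold lower (difference -7.62 (SE 0.11), adjusted p = 2.97e-13). Adh1, an alcohol dehydrogenase, stood at 0.565 and 0.467 against 134 and 129, and Lgals2, a galectin, at 0.451 and 0.363 against 87.2 and 152. The remaining 7 were Ndufs5-ps, Tsnaxip1, Cox7a2, Haus1, Slc9a3r1, Mrps12 and Tm7sf3, with differences from -8.34 to -6.62. Cox7a2 encodes a cytochrome oxidase subunit of nearly all cells, yet it stood at 0.751 and 0.641 with Dox and 0.404 and 0.790 without it against 153 and 201 in βTC6 cells and 79.1 and 74.2 in islets. Of all discovery probes, 23 were under 1 on all 4 EB arrays and over 5 on all 6 arrays of βTC6 cells, islets and embryonic pancreas, against 3 the other way round. Cox7a2, Ndufs5-ps, Slc9a3r1 and Tm7sf3 were in the first set, which follows the EB arrays and not Dox, and the part of cell line, culture and slide range in it cannot be told apart.

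The probes of the induced genes lay at or near background on these arrays. The Pdx1 probe stood at 0.27 on both arrays (both at background) in Dox(+) EBs against 0.776 and 0.598 in βTC6 cells (at least 2.52-fold lower, difference -1.33 (SE 0.19), adjusted p = 6.20e-05). The Neurog3 probe stood at 0.447 and 0.557 against 0.687 and 0.615 and did not pass (difference -0.38, 95% interval -0.86 to 0.09). Notch4 was at 0.877 on its 1 usable array in Dox(+) EBs against 0.491 and 0.385 (the second at background) in βTC6 cells and was not tested. All 3 were about as low in Dox(-) EBs, at 0.27 and 0.333 (both at background) for Pdx1, 0.458 and 0.520 for Neurog3 and 0.637 and 0.799 for Notch4. Whether these probes lie in the part of each gene that the cassette carries was not tested. By other means the study found Dox-induced Pdx1 by RT-PCR in ES cells with Pdx1 alone. It also stained for Pdx1 and Ngn3 protein after Dox in EBs of a later protocol. The probe levels here are therefore not read as a measure of the induction.

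Of 4 tested islet hormone genes, 3 were lower in the induced EBs and 1, ghrelin, was higher, with a median of -1.35 (1 higher and 2 lower after quantile normalization, 1 higher and 2 lower with control-spot scaling). Glucagon (Gcg) stood at 41.1 and 41.9 in Dox(+) EBs against 119 and 157 in βTC6 cells, 3.30-fold lower (difference -1.72 (SE 0.12), adjusted p = 2.12e-07), and at 0.451 and 0.432 in Dox(-) EBs. Somatostatin (Sst) stood at 119.9 and 103 against 211 and 229, 1.98-fold lower by the deposited scaling (difference -0.98 (SE 0.09), adjusted p = 1.38e-06) but not called after quantile normalization (0.15) or with control-spot scaling (-0.17), and at background on both Dox(-) arrays. Pancreatic polypeptide (Ppy) stood at 10.4 and 10.3 against 55.7 and 70.1, 6.05-fold lower (difference -2.60 (SE 0.13), adjusted p = 3.63e-09). Both Dox(+) arrays lay below both βTC6 arrays for these 3, and how often groups stood apart over all probes was not counted. Ghrelin (Ghrl), made by epsilon cells of the fetal islet and by the stomach, stood at 38.5 and 31.6 in Dox(+) EBs against 0.27 and 0.527 (the first at background) in βTC6 cells (difference 6.53 (SE 0.25), adjusted p = 2.21e-09). No probe was named for Ins1, Ins2 or Iapp alone, so insulin and amylin are not reported here.

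Of 20 tested genes for gut hormones and neuropeptides, 5 were higher and 12 lower in Dox(+) EBs, with a median of -0.77 (5 higher and 9 lower after quantile normalization, 8 higher and 6 lower with control-spot scaling). The shares over all probes were 27.6% higher and 40.1% lower, the first near that of this list. Gip, the incretin of intestinal K cells, had the levels given above (difference 8.84 (SE 0.17), adjusted p = 1.97e-12), where the Dox(+) spots were saturated and the difference is a lower bound. Pyy, of intestinal L cells and fetal islets, was at 213 and 231 (both saturated) against 5.07 and 7.22, at least 36.7-fold higher. Penk at 16.9 and 17.0 against 1.03 and 1.52, and Nts at 15.4 and 22.7 against 2.84 and 3.21, encode enkephalin and neurotensin precursors and were also higher, as was Nppc, a natriuretic peptide gene. Other peptide genes were higher in βTC6 cells. Npy, a neuropeptide of neurons and fetal islets, was at 16.8 and 19.3 in Dox(+) EBs against 268 and 330.0 (both saturated) in βTC6 cells, at least 16.5-fold lower. Pdyn, the dynorphin precursor, was at 0.27 and 0.389 (the first at background) against 18.1 and 36.0, and gastrin (Gast) at 2.04 and 1.67 against 31.4 and 29.6. Cck and secretin (Sct) were bright in both groups: Cck stood at 194 and 159.6 (the first saturated) against 356 and 376 (both saturated), and Sct at 118 and 115 against 401 on its 1 usable array (saturated). Both were called lower, and because their brighter spots were saturated the size of the difference is not known.

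The promoters of Sst and Gip are shown because Gip was the hormone gene with the largest difference and Sst was bright in both groups. Each run is the 250 bases before the annotated start site, 5′ to 3′ on the gene's strand, from RefSeq on GRCm38.p6, with capitals for TGACGTCA, the cAMP response element, and TATAAA on either strand.
Sst (chr16:23890845-23891094, minus strand): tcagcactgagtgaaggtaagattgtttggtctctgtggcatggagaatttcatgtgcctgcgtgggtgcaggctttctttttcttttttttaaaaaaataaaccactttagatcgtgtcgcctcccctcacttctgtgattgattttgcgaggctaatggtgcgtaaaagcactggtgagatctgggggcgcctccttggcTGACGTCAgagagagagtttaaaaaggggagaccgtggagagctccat
Gip (chr11:96024295-96024544, plus strand): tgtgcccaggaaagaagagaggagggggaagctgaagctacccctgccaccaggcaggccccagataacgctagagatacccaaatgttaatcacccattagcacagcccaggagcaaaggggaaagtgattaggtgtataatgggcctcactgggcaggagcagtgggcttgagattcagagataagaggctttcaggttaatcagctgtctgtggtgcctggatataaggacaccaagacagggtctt
The palindrome TGACGTCA was found in Sst, starting 48 bases before the transcript, in 1.77% of all 27025 genes with a promoter in the table, and in 2 of 21 gut hormone and neuropeptide genes (9.52%). Neither TGACGTCA nor TATAAA, which 14.3% of all genes hold, was found in Gip. A match describes letters in this window and no binding.

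**Figure D2:**
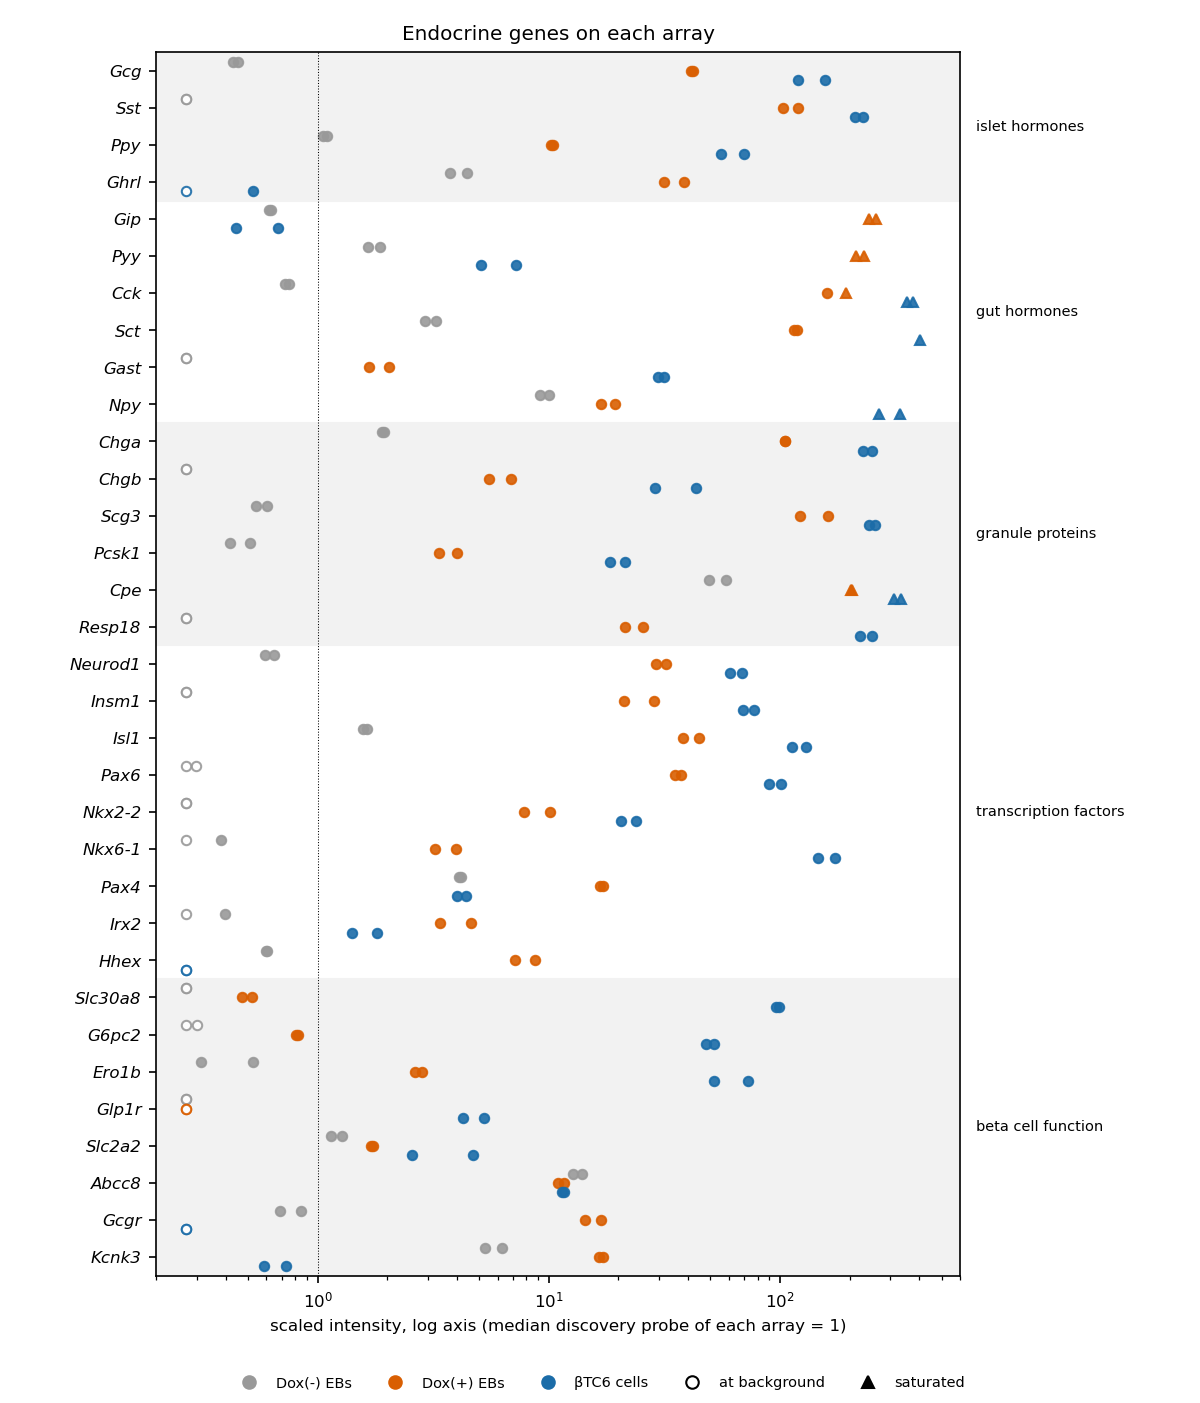
Scaled intensity on each array (log axis, 2 arrays per group) for endocrine genes in Dox(-) EBs, Dox(+) EBs and βTC6 cells. Open points are at background and triangles are saturated. Dox(+) EBs lie between the other groups for most hormone and granule genes, above both for genes that include Gip, Pyy, Ghrl, Pax4, Irx2, Hhex and Gcgr, and under 1 for Slc30a8, G6pc2 and Glp1r.

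Granule genes were lower in Dox(+) EBs nearly throughout, by a few fold. Of 15 tested granin and prohormone-processing genes, 14 were lower and 1 higher, with a median of -1.54 beside -0.14 over all probes and -0.77 in the brightest bin (1 higher and 11 lower after quantile normalization, 1 higher and 12 lower with control-spot scaling). Chromogranin A (Chga), a core granule protein, stood at 105 on both arrays in Dox(+) EBs against 250.1 and 228 in βTC6 cells, 2.26-fold lower (difference -1.18 (SE 0.09), adjusted p = 1.33e-07), and at 1.95 and 1.91 in Dox(-) EBs. Pcsk1, a convertase that cuts proinsulin, stood at 3.99 and 3.33 against 21.3 and 18.4, 5.44-fold lower. The autoantigen gene Ica1 at 4.30 and 4.24 against 48.2 and 50.7 and the granule gene Resp18 at 21.3 and 25.6 against 221 and 249.5 had the largest differences, -3.53 and -3.33. Scg3, which sorts chromogranin A to the granule, stood at 161 and 122 against 257 and 243 and was lower by the deposited scaling (-0.83) but not after quantile normalization (0.25). Cpe, the carboxypeptidase that finishes prohormones, is counted as lower but was saturated on all 4 arrays, so its difference was not measured. Pam, which amidates peptide hormones, was the exception at 98.4 and 71.4 against 42.8 and 44.9, 1.91-fold higher (adjusted p = 4.77e-05).

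The release machinery was split. Of 27 tested exocytosis genes, 16 were lower and 8 higher (8 higher and 15 lower after quantile normalization, 11 higher and 10 lower with control-spot scaling), and without the first Dox(+) array 5 were higher. Over all probes 40.1% were lower and 27.6% higher, so the higher share was near that of all probes. Sytl4, a granule tether of β cells, stood at 10.9 and 8.11 in Dox(+) EBs against 77.1 and 60.8 in βTC6 cells, 7.27-fold lower. Synaptophysin (Syp), a membrane protein of small vesicles, stood at 42.9 and 37.6 against 136 and 143, and Snap25, a SNARE, at 39.7 and 37.5 against 87.9 and 121. Cplx1, a complexin of neurons, went the other way at 7.27 and 6.59 against 1.33 and 1.23, 5.42-fold higher, as did Rab3c at 23.2 and 20.4 against 12.4 and 14.6. For Rab3c, Syt7 and Rims2 another probe was called lower, so the direction of these 3 genes is unsettled.

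Transcription factors of the endocrine lineage differed in both directions and the gap was widest for Nkx6-1. Of 28 tested, 15 were lower and 9 higher, with a median of -0.58, beside 40.1% lower and 27.6% higher over all probes (11 higher and 13 lower after quantile normalization, 12 higher and 7 lower with control-spot scaling). The 15 include Pdx1, whose probe was under 1 on all 4 arrays. Nkx6-1, a factor of β cells and their progenitors, stood at 3.96 and 3.21 in Dox(+) EBs against 147 and 172 in βTC6 cells, 44.6-fold lower (difference -5.48 (SE 0.17), adjusted p = 1.23e-10). Its groups lay far apart, and islets were at 214 and 175. Neurod1, a target of Neurog3, stood at 32.1 and 29.1 against 68.7 and 60.7, 2.11-fold lower (difference -1.08 (SE 0.11), adjusted p = 2.34e-06). The pan-endocrine factors Insm1 (28.6 and 21.1 against 69.3 and 77.0), Isl1 (44.6 and 38.2 against 129 and 112), Pax6 (37.2 and 35.2 against 101 and 89.9) and Nkx2-2 (10.1 and 7.84 against 23.9 and 20.5) showed the same pattern, 2.49-fold to 2.98-fold lower. Neurod1, Insm1, Isl1, Pax6 and Nkx2-2 were at most 1.64 on the Dox(-) arrays. Mafa stood at 0.376 and 0.296 against 0.400 and 0.707 (the first at background), low in both groups beside 5.54 and 4.88 in islets.

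The factors that were higher in Dox(+) EBs included some known from delta cells, alpha cells and endocrine progenitors. Hhex, a factor of delta cells and early endoderm, stood at 8.74 and 7.16 in Dox(+) EBs against 0.27 on both arrays (both at background) in βTC6 cells, at least 25.2-fold higher (difference 4.87 (SE 0.14), adjusted p = 5.05e-11). Pax4, which acts in endocrine progenitors downstream of Neurog3, stood at 17.2 and 16.6 against 4.39 and 4.00, 4.04-fold higher. The alpha-cell factor Irx2 stood at 4.59 and 3.40 against 1.81 and 1.40, and its relative Irx1 at 5.65 and 5.26 against 1.52 and 1.70. Nr5a2, Tox3, Lmx1b, Rfx3 and Foxa1 completed the 9, with differences from 0.23 to 1.59, and another Rfx3 probe was called lower. Rfx6, an islet and gut endocrine factor, stood at 34.9 and 30.1 against 36.1 and 26.3 and did not pass (difference 0.07, 95% interval -0.25 to 0.39).

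Genes of glucose sensing and insulin release included some of the widest gaps. Of 26 tested, 15 were lower and 7 higher (10 higher and 15 lower after quantile normalization, 10 higher and 8 lower with control-spot scaling), and the median of -0.59 hides a few very large differences. All tested probes were 40.1% lower and 27.6% higher, the second near the share of this list. G6pc2, the islet glucose-6-phosphatase, stood at 0.823 and 0.810 in Dox(+) EBs against 47.8 and 51.9 in βTC6 cells, 61.0-fold lower (difference -5.93 (SE 0.12), adjusted p = 2.86e-12). Ero1b, an oxidase that forms proinsulin disulphide bonds, stood at 2.83 and 2.63 against 72.8 and 51.5, 22.5-fold lower. Glp1r, the receptor for GLP-1, stood at 0.27 on both arrays (both at background) against 4.25 and 5.25, at least 17.5-fold lower, and the cation channel gene Trpm5 at 0.698 and 0.598 against 4.79 and 4.67. The anaplerotic enzyme Pcx stood at 3.11 and 3.25 against 16.2 and 11.7, 4.33-fold lower.

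The insulinoma line itself was low for several mature β-cell genes. The glucose transporter Slc2a2 stood at 1.73 and 1.70 in Dox(+) EBs against 2.56 and 4.68 in βTC6 cells, beside 72.6 and 73.5 in islets, and urocortin 3 (Ucn3) at 0.849 and 0.784 against 1.49 and 1.53, beside 189 and 180.1 in islets. Both were called lower in Dox(+) EBs (differences -1.01 and -0.89). Abcc8, the sulfonylurea receptor, stood at 11.6 and 11.0 against 11.4 and 11.7 and did not pass (difference -0.03, 95% interval -0.23 to 0.17), although its other probes were called lower. Kcnj11, the pore of the same channel, stood at 0.493 and 0.442 against 0.451 and 0.677 (difference -0.24, 95% interval -0.78 to 0.30). Higher in Dox(+) EBs were the glucagon receptor Gcgr, at 16.7 and 14.4 against 0.27 on both arrays (both at background) (at least 49.3-fold), and the acid-sensitive channel Kcnk3, at 17.1 and 16.4 against 0.584 and 0.727 (25.7-fold). The adenylyl cyclases Adcy8 and Adcy5 and the regulator Rgs4 were higher by 2.20, 1.80 and 2.20. Among 29 tested ion channel genes, 8 were higher and 11 lower (8 higher and 9 lower after quantile normalization, 17 higher and 4 lower with control-spot scaling), shares near those over all probes. Kcnma1, a large-conductance potassium channel, stood at 1.46 and 1.47 against 6.86 and 6.83, and the T-type calcium channel Cacna1g at 1.52 and 1.29 against 0.27 on both arrays (both at background).

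Genes that adult β cells keep low, often called disallowed, were mostly higher in Dox(+) EBs. Of 18, 12 were higher and 3 lower, with a median of 1.71 (14 higher and 2 lower after quantile normalization, 14 higher and 2 lower with control-spot scaling), beside 27.6% and 40.1% over all probes. High levels were not particular to the induced EBs. Summed over the list they were 308 and 340 in Dox(+) EBs, 447 and 498 in Dox(-) EBs and 377 and 371 in E15.5 pancreas, with no test between these. Hexokinase 2 (Hk2), a high-affinity glucose-phosphorylating enzyme, stood at 12.6 and 15.4 in Dox(+) EBs against 0.787 and 0.910 in βTC6 cells, 16.5-fold higher (difference 4.04 (SE 0.12), adjusted p = 5.27e-11). The monocarboxylate transporter Slc16a1 stood at 4.30 and 3.91 against 0.379 and 0.616 (the first at background), and Rest, a repressor of neuronal and endocrine genes, at 13.8 and 13.1 against 3.60 and 3.47. Ldha, another gene of this set, stood at 58.1 and 84.5 against 123 on its 1 usable array and was called lower by the deposited scaling (-0.81), but not after quantile normalization (0.33). The list also holds Pdgfra and Cxcl12, which mesenchymal cells express.

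Neuronal genes did not separate the groups in 1 direction. Of 30 tested cytoskeletal and synaptic genes, 13 were higher and 11 lower (15 higher and 5 lower after quantile normalization, 19 higher and 5 lower with control-spot scaling), beside 27.6% and 40.1% over all probes. Doublecortin (Dcx), a microtubule protein of migrating neurons, stood at 48.2 and 39.9 in Dox(+) EBs against 72.5 and 64.8 in βTC6 cells (difference -0.64 (SE 0.12), adjusted p = 4.56e-04; 0.29 after quantile normalization). Stathmin 2 (Stmn2), of growing axons, stood at 37.1 and 38.7 against 6.38 and 13.0, 4.17-fold higher, and the presynaptic adhesion gene Nrxn3 at 14.6 on the second Dox(+) array against 1.01 on both arrays, 14.9-fold higher over both Dox(+) arrays. Tubb3, a neuronal tubulin, stood at 6.14 and 5.14 against 4.24 and 3.53 (difference 0.54 (SE 0.15), adjusted p = 0.00843), a call lost without the first Dox(+) array (0.41) or the second βTC6 array (0.41). The neurofilament gene Nefm stood at 12.2 and 10.3 against 43.9 and 42.5 and was lower. Of these 5 genes, none was above 1 on a Dox(-) array.

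Neuronal regulators leaned towards the EBs. Of 26 tested transcription and RNA-binding factors of neurons, 15 were higher and 9 lower, with a median of 0.95 (15 higher and 9 lower after quantile normalization, 18 higher and 5 lower with control-spot scaling). Nhlh2, a basic helix-loop-helix factor, stood at 13.0 and 11.2 in Dox(+) EBs against 0.801 and 0.573 in βTC6 cells, 17.9-fold higher. Ebf1, Ebf2 and Ebf3, related factors of differentiating neurons, were called higher, Ebf1 and Ebf2 by 2.89 and 3.67. Ebf3 stood at 9.70 and 9.16 against 0.651 and 0.465 and at 0.355 and 0.27 (both at background) in Dox(-) EBs. Sox4, an SRY-box factor of many progenitors, stood at 14.6 and 11.2 against 0.27 on both arrays (both at background), at least 40.6-fold higher. Lhx2, a forebrain and follicle factor, went the other way at 0.755 and 0.721 against 6.39 and 6.71, as did the splicing regulator Rbfox3. Of 11 tested glial genes, 6 were higher and 1 lower (5 higher and 0 lower after quantile normalization, 11 higher and 0 lower with control-spot scaling), beside 27.6% and 40.1% over all probes. With a floor of 1, 2 were higher and 1 lower. Fabp7 had the largest difference, at 7.06 and 6.11 against 0.553 and 0.808. Levels summed over the list were 31.4 and 35.2 in Dox(+) EBs but 53.9 and 55.4 in Dox(-) EBs.

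Matrix, mesenchymal and vascular genes were for the most part higher in the EBs. Of 32 tested collagen and matrix genes, 26 were higher and 3 lower, with a median of 4.00 (26 higher and 3 lower after quantile normalization, 31 higher and 1 lower with control-spot scaling), and 1 was lower without the second Dox(+) array. Col1a1, the main chain of type I collagen, stood at 8.28 and 7.73 in Dox(+) EBs against 0.27 on both arrays (both at background) in βTC6 cells, at least 25.4-fold higher (difference 4.89 (SE 0.09), adjusted p = 1.97e-12). The basement-membrane collagen Col4a1 stood at 37.6 and 32.2 against 1.10 and 1.11, 31.4-fold higher, and Sparc, a collagen-binding glycoprotein, at 81.0 and 75.5 against 4.31 and 4.35. Col6a3, a chain of type VI collagen, was lower at 1.43 and 1.71 against 4.54 and 6.83, while its partner Col6a2 was higher at 35.6 and 39.7 against 0.376 and 0.484 (the first at background). In Dox(-) EBs Col1a1 stood at 127 and 137 and Sparc at 218 and 219.6, a difference from Dox(+) EBs that was not tested here.

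Of 27 tested mesenchymal genes, 19 were higher and 4 lower (20 higher and 4 lower after quantile normalization, 24 higher and 3 lower with control-spot scaling). With probes above background on all 4 arrays alone, 10 were higher and 4 lower. Pdgfra, a receptor of mesenchymal progenitors, stood at 27.3 and 29.1 against 0.726 and 0.508, 46.4-fold higher, and vimentin (Vim) at 92.9 and 91.5 against 2.25 and 2.49, 39.0-fold higher. Postn, a secreted matricellular protein, stood at 22.6 and 21.7 against 0.27 on both arrays (both at background), at least 70.5-fold higher. Against this trend the homeobox gene Meox2, known from somites and vessels, stood at 0.578 and 0.666 in Dox(+) EBs against 37.8 and 44.5 in βTC6 cells, 66.2-fold lower (difference -6.05 (SE 0.14), adjusted p = 8.56e-12), and at background on both islet arrays. Of 18 tested endothelial genes, 16 were higher and 2 lower (16 higher and 2 lower after quantile normalization, 16 higher and 1 lower with control-spot scaling), with a median of 2.36. The angiopoietin receptor relative Tie1 stood at 15.8 and 13.3 against 0.281 and 0.27 (both at background), the VEGF receptor Kdr at 20.3 and 19.7 against 0.375 and 0.542 (the first at background), and the junction protein Pecam1 at 4.98 and 4.67 against 0.27 on both arrays (both at background). The lymphatic VEGF receptor Flt4 was lower, at 3.82 and 3.63 against 24.6 and 28.7. Of 12 tested blood genes, 4 were higher and 4 lower (5 higher and 4 lower after quantile normalization, 10 higher and 2 lower with control-spot scaling, and 2 lower without the second Dox(+) or the second βTC6 array), shares not far from 27.6% and 40.1% over all probes. The platelet gene Pf4 stood at 0.797 and 0.663 with Dox and 98.6 and 89.2 without it.

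**Figure D3:**
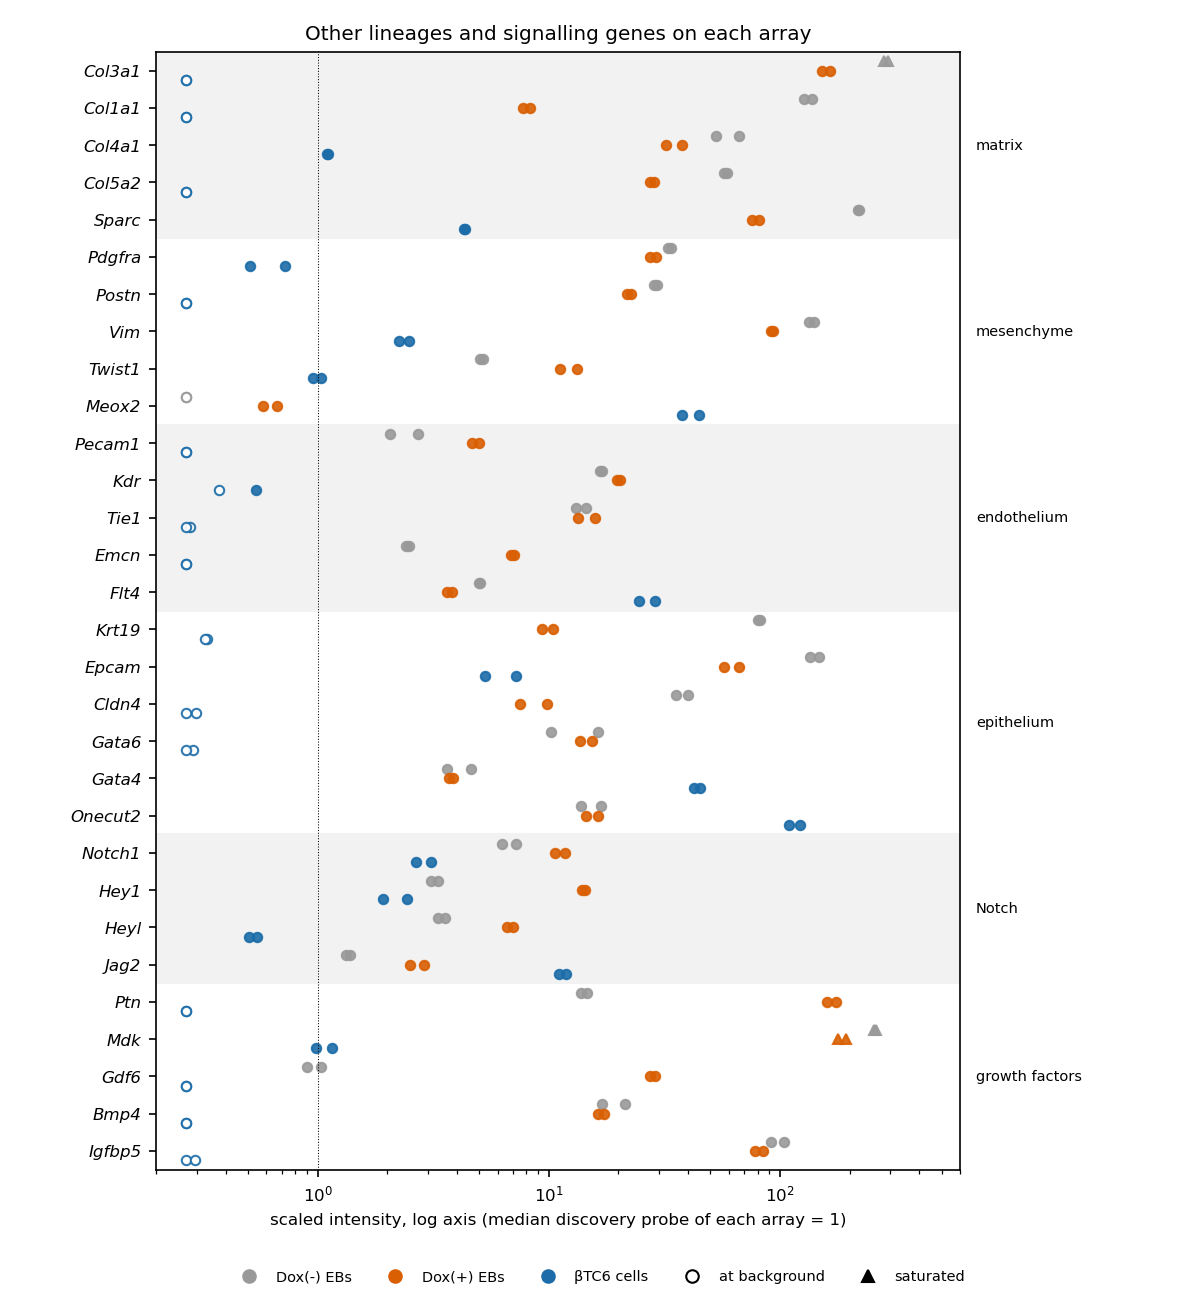
Scaled intensity on each array (log axis, 2 arrays per group) for matrix, mesenchymal, endothelial, epithelial, Notch and growth factor genes in Dox(-) EBs, Dox(+) EBs and βTC6 cells. Open points are at background and triangles are saturated. The βTC6 points lie lowest for most genes and highest for Meox2, Flt4, Gata4, Onecut2 and Jag2.

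Most epithelial progenitor genes were also higher in Dox(+) EBs. Of 19 tested ductal and progenitor genes, 14 were higher and 4 lower (14 higher and 3 lower after quantile normalization, 15 higher and 2 lower with control-spot scaling). Krt19, a keratin of ducts, stood at 9.31 and 10.4 in Dox(+) EBs against 0.331 and 0.325 (both at background) in βTC6 cells, at least 30.0-fold higher, and the adhesion molecule Epcam at 66.2 and 57.4 against 5.30 and 7.22, 9.96-fold higher. The endoderm factor Gata6 stood at 15.3 and 13.6 against 0.289 and 0.27 (both at background), at least 45.9-fold higher, whereas its relative Gata4 stood at 3.71 and 3.87 against 42.5 and 45.1, 11.5-fold lower. Onecut2 stood at 16.3 and 14.5 against 122 and 109.5, 7.54-fold lower. Krt19 and Epcam were at 81.9 and 80.5 and 148 and 135 in Dox(-) EBs. Of 14 tested acinar genes, 9 were higher and 2 lower (9 higher and 2 lower after quantile normalization, 12 higher and 2 lower with control-spot scaling). Levels were low apart from the carboxypeptidase Cpa1, at 13.1 and 17.4 against 0.27 on both arrays (both at background), the trypsin inhibitor Spink1, at 33.9 and 31.4 against 0.516 and 0.371 (the second at background), and colipase (Clps), at 9.97 and 8.35 against 2.12 and 2.03. The acinar factor Bhlha15 was lower, at 0.397 and 0.293 (the second at background) against 2.51 and 2.10.

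Of 21 tested liver genes, 12 were higher and 6 lower (13 higher and 5 lower after quantile normalization, 14 higher and 4 lower with control-spot scaling). Alpha-fetoprotein (Afp), a product of yolk sac and fetal liver, stood at 24.3 and 18.6 against 0.506 and 0.633, 37.6-fold higher, and fibrinogen beta (Fgb) at 17.4 and 16.3 against 0.847 and 0.988. Albumin (Alb) was low in both groups, at 0.463 and 0.372 against 0.945 and 1.32. Transthyretin (Ttr), also an islet product, was saturated on each Dox(+) and βTC6 array that measured it, so its difference is not known. Of 15 tested intestinal genes, 6 were higher and 4 lower (6 higher and 4 lower after quantile normalization, 11 higher and 1 lower with control-spot scaling, and 3 higher without the first Dox(+) array). All tested probes were 27.6% higher and 40.1% lower. The cadherin Cdh17 had the largest difference in favour of the EBs, at 4.42 and 3.39 against 0.643 and 0.565. The intestinal factor Cdx2 was lower at 4.05 and 3.13 against 6.66 and 9.52. Of 18 tested heart and muscle genes, 14 were higher and 1 lower (14 higher and 1 lower after quantile normalization, 17 higher and 1 lower with control-spot scaling), but at levels of a few units, such as 3.54 and 3.20 against 0.27 on both arrays (both at background) for troponin Tnni1. The lone gene that was lower, the myosin light chain Myl3, stood at 7.49 and 6.48 against 115 and 147. Of 13 tested pluripotency genes, 4 were higher and 2 lower (4 higher and 2 lower after quantile normalization, 10 higher and 1 lower with control-spot scaling), but 2 were higher without the second Dox(+) or the first βTC6 array and 1 was lower without the first Dox(+) or the second βTC6 array. The share of higher genes was near the 27.6% of all probes. Nanog stood at 0.350 and 0.320 in Dox(+) EBs against 0.27 on both arrays (both at background) in βTC6 cells and did not pass (difference 0.31, 95% interval -0.13 to 0.75), and Pou5f1 at 2.22 and 2.11 against 4.53 and 5.19.

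**Figure D4:**
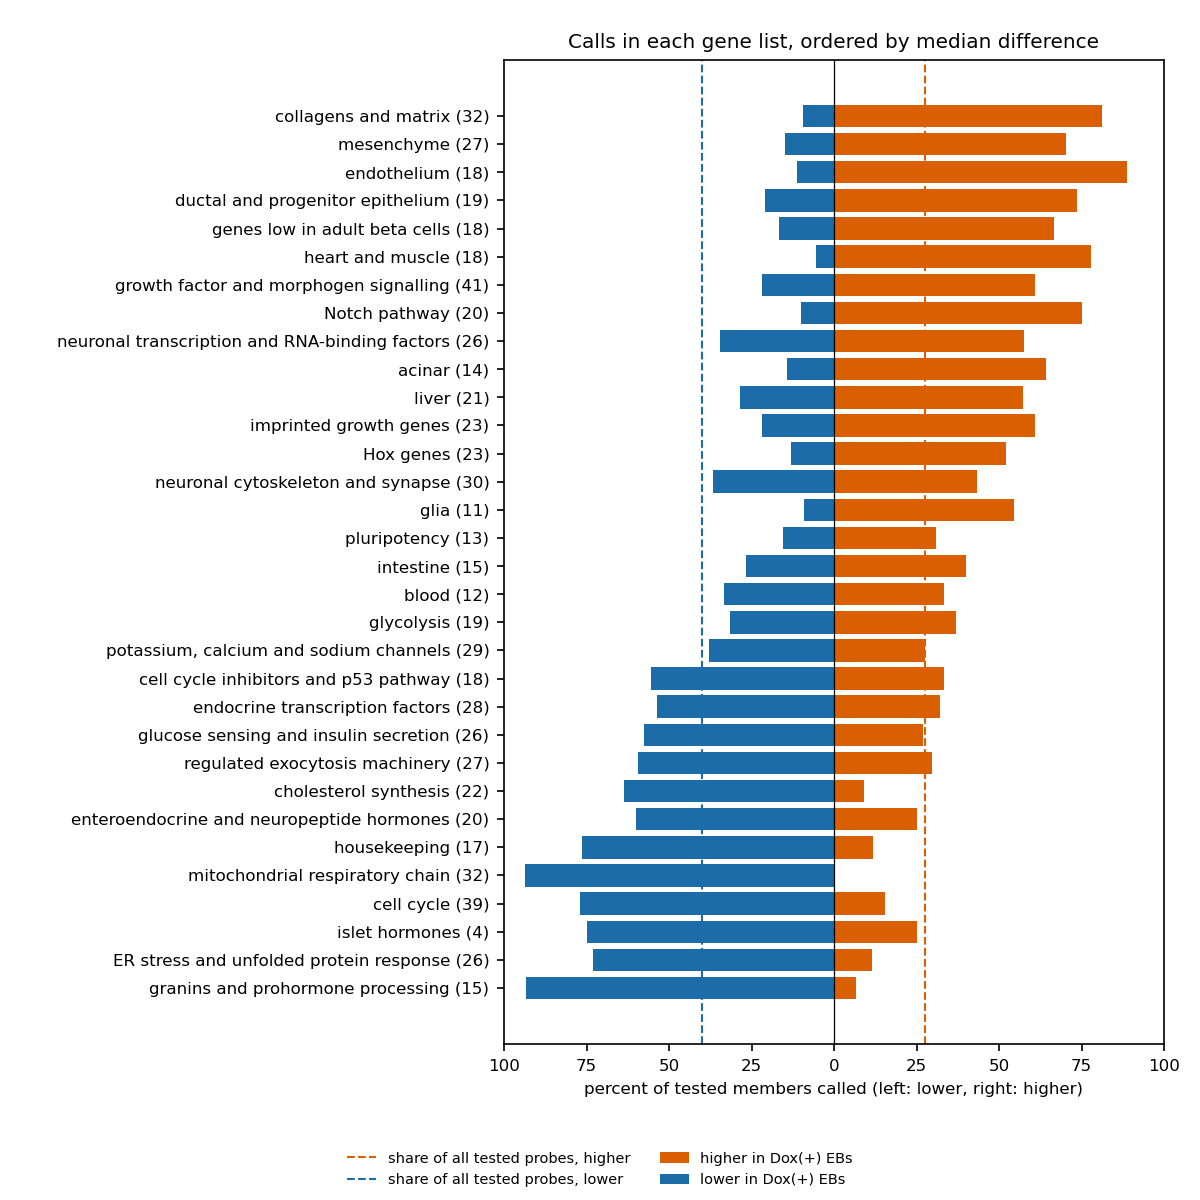
Percent of tested members called higher (right) and lower (left) in Dox(+) EBs for each gene list, with the number tested in brackets and the lists ordered by median difference. Dashed lines mark the shares over all tested probes, 27.6% higher and 40.1% lower, which the matrix, endothelial and heart lists, among others, pass on the right and the granin, respiratory chain and cell cycle lists on the left.

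Among tested signalling genes, more were called higher than lower in Dox(+) EBs. Of 41 tested growth factor and morphogen genes, 25 were higher and 9 lower, with a median of 1.11 (28 higher and 8 lower after quantile normalization, 33 higher and 5 lower with control-spot scaling). Genes at background in βTC6 cells entered the test only through their level in the EBs. With probes above background on all 4 arrays alone, 8 of the list were higher and 6 lower. Among ligands, the BMP-family gene Gdf6 stood at 28.9 and 27.4 in Dox(+) EBs against 0.27 on both arrays (both at background) in βTC6 cells, at least 89.5-fold higher (difference 6.70 (SE 0.13), adjusted p = 1.97e-12), and at 0.898 and 1.04 in Dox(-) EBs. Bmp4 stood at 17.2 and 16.3 against 0.27 on both arrays (both at background) and Bmp7 at 15.2 and 14.6 against 0.27 on both arrays (both at background). Among receptors, Fzd2, for Wnt ligands, stood at 10.8 and 9.99 against 0.27 on both arrays (both at background), and Fgfr1 at 10.2 and 8.14 against 0.690 and 1.29. Among secreted inhibitors, Sfrp1, which binds Wnt, stood at 44.7 and 44.8 against 0.730 and 0.584, 68.5-fold higher. Lower were Wnt4, at 11.5 and 10.3 against 44.4 and 61.8, the intracellular Fgf12, at 7.53 and 7.58 against 26.4 and 34.5, and the receptor Egfr, at 12.2 and 12.0 against 34.7 and 29.0.

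Of 20 tested Notch pathway genes, 15 were higher and 2 lower, with a median of 1.09 (17 higher and 2 lower after quantile normalization, 17 higher and 1 lower with control-spot scaling). Notch1 stood at 11.8 and 10.7 in Dox(+) EBs against 2.65 and 3.09 in βTC6 cells, 3.91-fold higher, and its target Hey1 at 14.3 and 13.9 against 1.91 and 2.43, 6.53-fold higher. Heyl, a related target, stood at 7.01 and 6.62 against 0.545 and 0.504, and the ligand Dll1 at 1.26 and 1.10 against 0.376 and 0.27 (both at background). The other ligand gene Jag2 was lower at 2.90 and 2.52 against 11.8 and 11.0, as was the fringe enzyme Rfng at 10.9 and 8.42 against 15.2 and 16.7, which turned sign with control-spot scaling (0.08). Hes1 was at background on all 4 arrays. Of 23 tested Hox genes, 12 were higher and 3 lower (12 higher and 3 lower after quantile normalization, 19 higher and 1 lower with control-spot scaling), the largest being Hoxb2 at 3.67 and 3.52 against 0.27 on both arrays (both at background) and Hoxd8 at 2.68 and 2.45 against 0.377 and 0.27 (both at background). Of 23 tested imprinted genes, 14 were higher and 5 lower (17 higher and 3 lower after quantile normalization, 17 higher and 2 lower with control-spot scaling). H19, a maternal noncoding RNA, stood at 28.1 and 31.7 against 3.00 and 2.95, Peg10, derived from a retrotransposon, at 41.4 and 36.7 against 0.27 and 0.685 (the first at background), and the growth inhibitor Cdkn1c at 29.8 and 36.6 against 0.741 and 1.23. Igf2, a fetal growth factor, is counted as lower but was saturated on all 4 arrays, so its difference was not measured. Gnas, the stimulatory G protein subunit that couples GLP-1 and glucagon receptors to cAMP, was lower at 2.86 and 2.50 against 23.3 and 19.8.

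Proliferation genes were mostly lower in Dox(+) EBs than in the tumour line. Of 39 tested, 30 were lower and 6 higher, with a median of -1.22 (7 higher and 28 lower after quantile normalization, 10 higher and 21 lower with control-spot scaling). Mki67, a marker of cycling cells, stood at 31.1 and 32.0 in Dox(+) EBs against 184 and 170.0 in βTC6 cells, 5.60-fold lower (difference -2.49 (SE 0.09), adjusted p = 3.41e-10), and at 51.1 and 49.1 without Dox, beside 3.12 and 2.72 in islets. The mitotic kinase Cdk1 stood at 37.0 and 34.0 against 165 and 183, 4.90-fold lower, and the topoisomerase Top2a at 13.9 and 12.0 against 75.8 and 71.0, 5.68-fold lower. Among the lower genes Cdc6, which licenses replication origins, had the largest difference, at 4.47 and 3.91 against 35.2 and 28.7, 7.60-fold lower. Cyclin B2 (Ccnb2), a partner of Cdk1, stood at 26.4 and 25.9 against 94.1 and 118, and Cdc20, which activates the anaphase-promoting complex, at 11.3 and 10.1 against 55.1 and 60.9. Higher in Dox(+) EBs were the G1 genes Cdk6, at 2.33 and 2.20 against 0.27 on both arrays (both at background), Ccnd3, at 17.1 and 13.9 against 4.97 on its 1 usable array, Cdk2, at 7.36 and 6.41 against 2.17 and 3.03, and Ccnd1, at 0.744 and 0.651 against 0.27 on both arrays (both at background), together with Rbl2 and Chek1.

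The promoters of Ccnb2 and Cdc20 are shown as members of a list whose genes were mostly lower. They are the same 250 bases before the start site, with capitals for CCAAT and for TTTGAA, the letters of the cell cycle genes homology region, on either strand.
Ccnb2 (chr9:70421555-70421804, minus strand): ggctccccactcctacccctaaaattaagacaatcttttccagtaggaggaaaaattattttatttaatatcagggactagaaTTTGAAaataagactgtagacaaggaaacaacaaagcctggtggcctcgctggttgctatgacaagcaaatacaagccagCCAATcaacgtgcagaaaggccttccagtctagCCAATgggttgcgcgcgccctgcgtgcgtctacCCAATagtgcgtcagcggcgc
Cdc20 (chr4:118437344-118437593, minus strand): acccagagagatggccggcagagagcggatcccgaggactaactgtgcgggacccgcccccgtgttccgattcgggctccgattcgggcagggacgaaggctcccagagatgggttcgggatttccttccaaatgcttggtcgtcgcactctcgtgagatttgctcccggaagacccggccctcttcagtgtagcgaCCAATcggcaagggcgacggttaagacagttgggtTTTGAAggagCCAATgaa
CCAAT was found in 21 of the 32 cell cycle genes with a promoter in the table (65.6%) and in 37.5% of all genes. TTTGAA was found in 9 of the 32 (28.1%) and in 18.3% of all genes. In Ccnb2 it starts 167 bases before the transcript, upstream of the CCAAT matches at 87, 54 and 21. In Cdc20 it starts at 18, between CCAAT matches at 53 and 8. Here too a match describes letters and no binding, and whether either TTTGAA acts as a homology region was not tested.

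Inhibitors of the cell cycle differed in direction, with the INK4 family lower in Dox(+) EBs. Cdkn2c (p18), an INK4 inhibitor of Cdk4 and Cdk6, stood at 9.91 and 8.91 in Dox(+) EBs against 188 and 201 in βTC6 cells, 20.7-fold lower (difference -4.37 (SE 0.10), adjusted p = 7.33e-12). Its relatives were lower too: Cdkn2d stood at 21.7 and 21.5 against 101 and 106, Cdkn2a at 1.01 and 0.781 against 6.17 and 12.0 and Cdkn2b at 16.2 and 13.9 against 41.6 on its 1 usable array. Cdkn1c (p57), of the CIP/KIP family, was 34.6-fold higher (difference 5.11 (SE 0.19), adjusted p = 8.60e-10). Cdkn1a (p21), of the same family, stood at 24.5 and 21.2 against 15.4 and 38.9 and did not pass (difference -0.10, 95% interval -0.87 to 0.66), but without the second βTC6 array it was called higher (0.56) and without the first lower (-0.77). Over the 18 tested inhibitors and p53 targets, 6 were higher and 10 lower (7 higher and 8 lower after quantile normalization, 9 higher and 5 lower with control-spot scaling). These counts stand beside 27.6% higher and 40.1% lower over all probes.

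The protein-folding machinery of the endoplasmic reticulum was mostly lower in Dox(+) EBs. Of 26 tested genes of ER stress and the unfolded protein response, 19 were lower and 3 higher, with a median of -1.42 (6 higher and 19 lower after quantile normalization, 7 higher and 17 lower with control-spot scaling). Dnajc3, a luminal co-chaperone, stood at 1.06 and 0.979 in Dox(+) EBs against 34.2 and 44.6 in βTC6 cells, 38.4-fold lower (difference -5.26 (SE 0.15), adjusted p = 4.66e-11). Sdf2l1 stood at 14.3 and 12.0 against 121 and 139, Manf at 28.2 and 27.0 against 168 and 171 and Creld2 at 34.7 and 31.7 against 184 and 179, all stress-induced ER proteins. The sensor kinase Ern1 stood at 0.916 and 0.814 against 11.4 and 10.1 and the stress factor Ddit3 (CHOP) at 17.4 and 15.7 against 64.0 and 79.1. The chaperone Hspa5 (BiP) stood at 56.3 and 58.4 against 147 and 149, 2.59-fold lower. Calreticulin (Calr) stood at 31.2 and 28.9 against 24.3 and 31.3 and did not pass (difference 0.12, 95% interval -0.15 to 0.39), and Hyou1, Pdia4 and the kinase gene Eif2ak3 were higher. Without the first Dox(+) array 0 of these 3 were called higher, and Pdia4, which only that Dox(+) array measured, could not be tested.

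Respiratory chain genes were lower with 2 exceptions, many by an amount close to the shift of bright probes. Of 32 tested, 30 were lower and 0 higher, with a median of -1.16 beside -0.77 in the brightest bin (5 higher and 15 lower after quantile normalization, 4 higher and 21 lower with control-spot scaling). Cytochrome c (Cycs) stood at 47.1 and 45.7 against 180.3 and 198, 4.07-fold lower, and the complex I subunit Ndufs3 at 7.43 and 7.99 against 26.7 and 31.0. The ATP synthase subunit Atp5a1 stood at 88.2 and 82.8 against 126 and 95.8, a small difference (-0.36) that turned sign after quantile normalization (0.74) and with control-spot scaling (0.45). Of 19 tested glycolysis genes, 7 were higher and 6 lower (10 higher and 3 lower after quantile normalization, 12 higher and 3 lower with control-spot scaling), beside 27.6% and 40.1% over all probes. Ldhb was among the higher, at 22.7 and 22.8 against 6.55 and 6.62, and Tpi1 among the lower, at 3.17 and 4.38 against 14.8 and 24.8. Of 22 tested genes of sterol and fatty acid synthesis, 14 were lower and 2 higher (3 higher and 9 lower after quantile normalization, 8 higher and 5 lower with control-spot scaling, and 1 higher without the first Dox(+) or the first βTC6 array and 4 without the second βTC6 array), the largest being the isomerase Ebp at 10.5 and 9.03 against 43.5 and 55.3.

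Genes often used as references were mostly lower in Dox(+) EBs, as were 75.9% of all probes in the brightest bin. Of 17 tested, 13 were lower and 2 higher in Dox(+) EBs, with a median of -0.88 (5 higher and 6 lower after quantile normalization, 5 higher and 5 lower with control-spot scaling), and 1 was higher without the first Dox(+) or the second βTC6 array. Hprt stood at 2.46 and 2.48 with Dox and 1.11 and 1.23 without it against 86.9 and 92.9 in βTC6 cells, 36.4-fold lower (difference -5.19 (SE 0.12), adjusted p = 8.93e-12). Its locus carries the inducible cassette in the EBs, and whether the insertion bears on this level was not tested. Ywhaz stood at 67.9 and 63.7 against 24.6 and 27.3, 2.54-fold higher, while Gusb stood at 11.1 and 8.72 against 21.7 and 20.3 and Tbp at 8.64 and 7.79 against 12.9 and 11.4, with differences of -1.10 and -0.56, and Tbp turned sign with control-spot scaling (0.25).

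**Figure D5:**
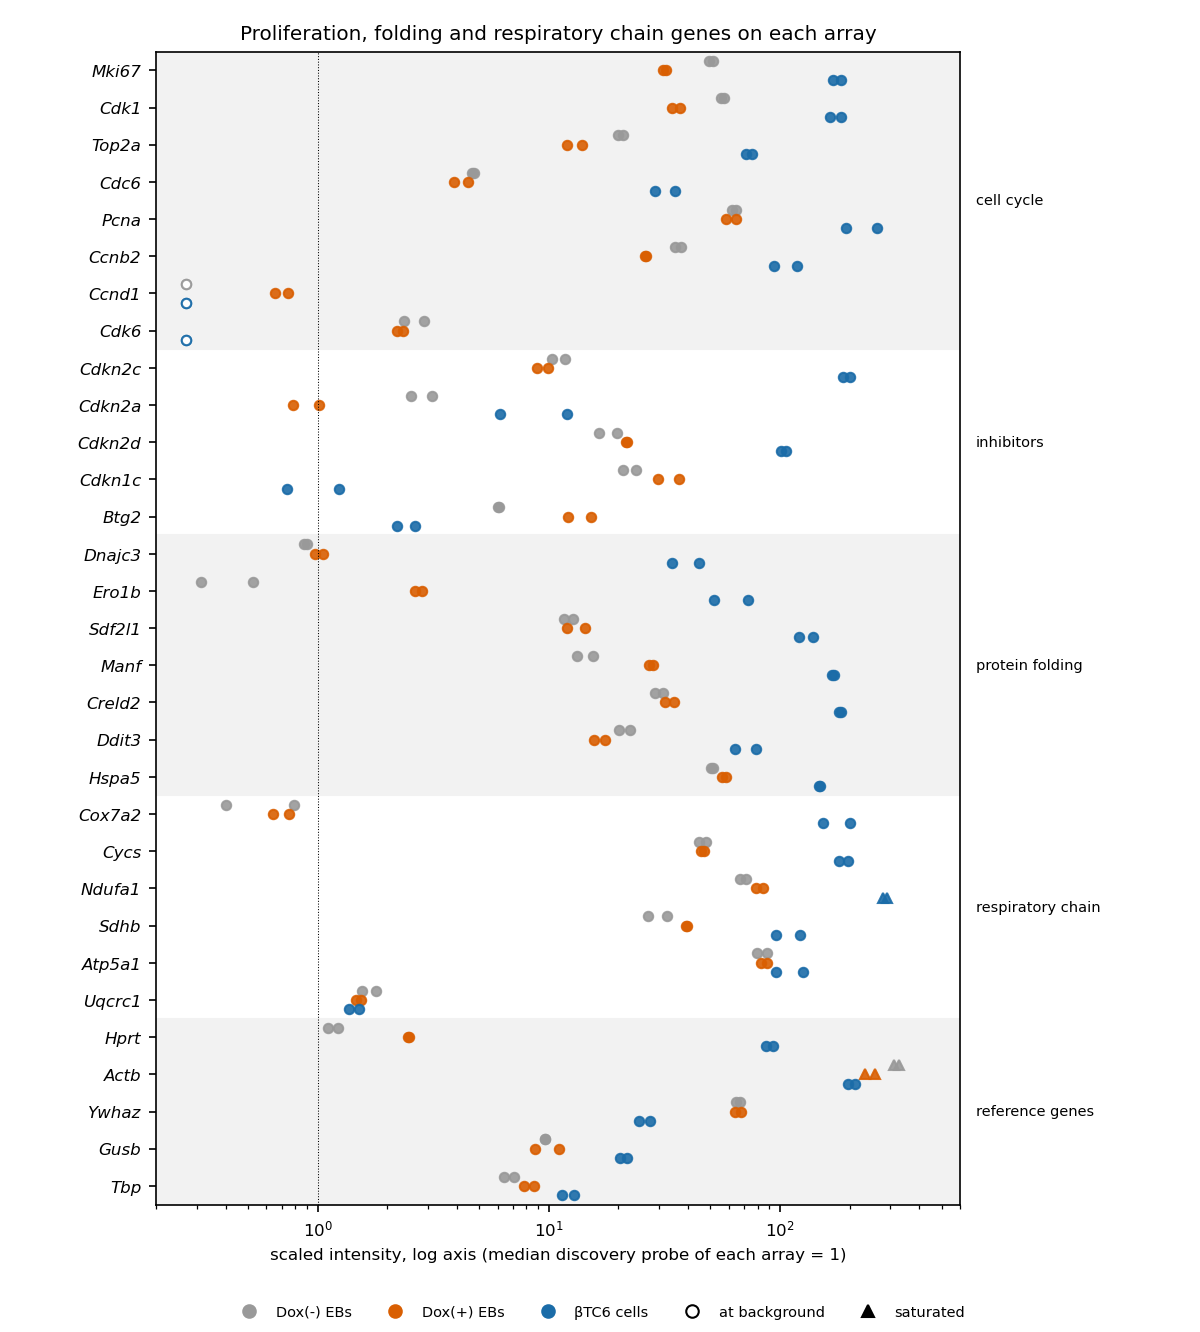
Scaled intensity on each array (log axis, 2 arrays per group) for cell cycle, inhibitor, protein folding, respiratory chain and reference genes in Dox(-) EBs, Dox(+) EBs and βTC6 cells. Open points are at background and triangles are saturated. βTC6 points lie above both EB groups for most cell cycle and folding genes, and Cox7a2 and Hprt are low in both EB groups.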

How the data were processed

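Total RNA of 10 samples in 5 groups of 2 was measured on 1-colour CodeLink mouse arrays, 4 of them compared here. The intensity values were made by the authors' scanner software, CodeLink Expression Analysis 4.1.0.29054, which took the local background off each of 36227 spots and scaled each array so that the median of its 34967 discovery probes was 1. The 1260 control spots entered no test. Masked, irregular and contaminated spots were left out, while saturated ones stayed in as bounds. Of the Dox(+) arrays 73.7% and 74.3% of probes were above background and of the βTC6 arrays 66.0% and 68.2%. The number of arrays limits the precision.

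Levels were floored at 0.27, log2 transformed and fitted in R 4.3.3 by limma 3.58.1 with 1 mean per group of the 10 arrays (trend and robust eBayes, 5 residual degrees of freedom, median prior 6.64). P was adjusted by Benjamini-Hochberg over 26026 probes. A fold is "at least" where both arrays of the higher group were saturated or both of the lower at background, taken against the lowest signal above background. A gene has 1 probe, that with the accession in the study's gene table, otherwise its brightest. Probes with 1 symbol numbered 21615, with several 681 and with none 12671, named through a GRCm38.p6 gene table. Genes were named by a rule: the induced, hormone, islet and neuronal genes of the study, the 10 largest differences each way with groups that do not overlap, and from each of 32 lists up to 5 members with the smallest adjusted p, up to 3 with the largest differences, those in a direction with few calls and up to 2 that did not pass. Some further members of the lists were added for their roles after their values were seen. Members, lists and rule were chosen with earlier results of these data known. Tables and figures used matplotlib 3.10.9, numpy 2.4.6 and pandas 2.3.3 under Python 3.11.15.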

Additional observations from a re-analysis of the deposited data

How the results depend on the processing

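Control-spot scaling, chosen after seeing the data, gave 15772 probes higher and 4281 lower, and a minimum difference of 1 gave 3306 and 5221. Of list counts, lower endocrine transcription factors went from 15 to 7 with control-spot scaling and 9 with the minimum difference, and lower glucose-sensing genes from 15 to 8 with control-spot scaling. With probes above background on all 4 arrays alone, which leaves fewer genes tested, higher endothelial genes went from 16 to 6 and higher matrix genes from 26 to 13. The same filter took higher growth factor and morphogen genes from 25 to 8, heart and muscle genes from 14 to 4 and Hox genes from 12 to 6. It also took higher mesenchymal genes from 19 to 10, ductal and progenitor genes from 14 to 8, acinar genes from 9 to 4 and Notch pathway genes from 15 to 9. Lower respiratory chain genes went from 30 to 15 after quantile normalization and 15 with normexp before it. Leaving out 1 array in turn gave 5962 to 6955 probes higher and 9195 to 10136 lower. The same gave 14 to 14 lower granule genes, 13 to 15 lower endocrine factors, 15 to 16 lower glucose-sensing genes, 29 to 30 lower cell cycle genes, 27 to 29 lower respiratory chain genes, 25 to 26 higher matrix genes, 16 to 16 higher endothelial genes and 11 to 12 higher genes among those low in adult β cells. Where an omission left 1 array in a group, that array was assumed to vary like the others.

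Some named genes changed sign, and those called in the main fit or in the alternative are given here. With control-spot scaling the differences were 0.15 for Cpe, 0.14 for Mafa, 0.78 for Abcc8, 0.038 for Ldha, 0.17 for Dcx, 0.15 for Igf2, 0.078 for Rfng, 0.25 for Tbp and 0.45 for Atp5a1. After quantile normalization they were 0.15 for Sst, 0.25 for Scg3, 0.21 for Cpe, 0.22 for Abcc8, 0.33 for Ldha, 0.29 for Dcx, 0.35 for Igf2 and 0.74 for Atp5a1, and with normexp first 0.15, 0.25, 0.21, 0.21, 0.33, 0.28, 0.36 and 0.73 in the same order. Cdkn1a was 0.56 without the second βTC6 array and -0.77 without the first. Beyond scaling the causes were not tested. Leaving out at least 1 array also ended the calls of Nppc, Rims2, Rfx3, Foxa1, Eif2ak3, Hyou1, Tubb3, Mafa, Alb and Atp5a1. The other alternatives were floors of 0.1 and 1, no filter and a wider filter on background, a fit to the 4 arrays alone, plain eBayes with neither trend nor robust weights, a threshold of 0.01, and contaminated spots kept.

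With the replicate number as a block, 7085 probes were higher and 10363 lower. Between Dox(+) EBs and βTC6 cells, arrays with the same number did not deviate together (correlation of deviations -0.01 across probes). Only these groups were compared, so this cannot show whether arrays with the same number shared a culture or handling.

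Signals at background on both arrays of a group give bounds, and saturated spots hide differences among the brightest genes.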

Other observations

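Of the 23 probes that were under 1 on all 4 EB arrays and over 5 on all 6 others, several have a known housekeeping role. Sirt1, an NAD-dependent deacetylase, was at most 0.390 on the EB arrays and 13.2 to 14.2 in βTC6 cells. Kdelr1, which returns proteins to the endoplasmic reticulum, was at most 0.608 against 23.8 to 29.0, and Arf5, a small GTPase of vesicle traffic, at most 0.421 against 16.2 to 17.4. Spcs3, a subunit of the signal peptidase, was at most 0.835 against 29.8 to 40.0. These genes were chosen after their values were seen.

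Different probes of a gene did not always point the same way. Among 1195 genes with more than 1 called probe, 288 had probes called in both directions, which limits statements on genes represented here by 1 probe.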
